A study of Mus musculus with 16 samples.

Results

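The nuclear genes of oxidative phosphorylation were described in extensor digitorum longus myofibres, complex by complex. The genes were all rows of the deposited tables whose symbol begins with Ndufa, Ndufb, Ndufc, Ndufs, Ndufv, Uqcr, Cox4, Cox5, Cox6, Cox7, Cox8 or Atp5, or equals Cyc1, without the Ndufaf assembly factors and pseudogene symbols. They number 82 of 23221 gene rows. Complex I has 36 of them, complex III 9, complex IV 20 and complex V 15. Ndufa4 and Ndufa4l2 were counted with complex IV, where the Ndufa4 protein is found, although their symbols name complex I. Atp5s and Atp5sl, 2 genes that share the prefix of the synthase and are not subunits of it, were kept in the counts of all members and in no complex. Succinate dehydrogenase (complex II) was not among the members and is given with the other genes of the pathway.

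The study sequenced RNA of myofibres freed of the mononuclear cells attached to them, from the extensor digitorum longus, a fast limb muscle, of C57BL/6 males. There were 4 groups of 4 libraries: young controls of 4 months, young mice of 4 months with 5 weeks of voluntary wheel running, old controls of 22 months, and old mice of 22 months with the same 5 weeks of running. The labels name no genotype, transgene or drug, and do not say whether a library is 1 animal or a pool, so p-values measure only the spread between these libraries. The libraries held 30.7 to 67.4 M reads assigned to genes (median 46.9 M, where M stands for 1000000). Values per library are given as normalised reads, the reads recovered from the deposited values divided by a size factor per library. Control libraries are named as the columns of the tables name them (Yc4, Yc5, Yc7, Yc8 and Oc1 to Oc4), since these numbers differ from those in the sample titles.

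Oxidative phosphorylation turns the energy of NADH and succinate into ATP on the inner mitochondrial membrane. Complex I oxidises NADH and complex III oxidises ubiquinol, complex IV passes the electrons to oxygen, and complex V, the ATP synthase, uses the proton gradient that the others build. Each of these complexes joins subunits encoded in the mitochondrial DNA with the nuclear subunits described here, among them catalytic core subunits and many small accessory ones. In muscle, endurance activity is known for raising mitochondrial content, and several subunits of complex IV have an isoform made mainly in muscle and heart (Cox6a2, Cox7a1, Cox8b).

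Nuclear subunit genes are known as targets of the factors NRF1 and GABP (an ETS-family factor), so the bases before their start sites were searched for 3 letter patterns on both strands: GCATGCGC (NRF1 core), CCGGAAGT (ETS) and CGGAAG, the ETS core that lies within it. RefSeq promoters of build GRCm38.p6 were found for 67 members, 3 of them under another symbol, with 73 start sites in all. The NRF1 core was present in the 250 bases before 7 of the 73 start sites (9.6%), against 2.3% of the 32851 windows of the same length in the table. The ETS pattern was present in 3 (4.1% against 2.9%) and the ETS core in 21 (28.8% against 13.6%). By complex, the ETS core was in 20.6% of 34 windows of complex I, 2 of 5 windows of complex III, 21.4% of 14 of complex IV and 52.9% of 17 of complex V. Matches are letters in a window and not sites. Windows of a gene with several start sites can overlap. Those of Atp5c1 in complex V hold the same ETS core letters, at −88 and −166 from their start sites, and both are counted. The 5 windows below are those of Cox7b and Atp5l, the members with the lowest differences with running in young mice, of Ndufa9, among the highest, and of Ndufa11 and Uqcrh, which show an NRF1 and an ETS match. They lie at chrX:106015450-106015699 (Cox7b, + strand), chr9:44920743-44920992 (Atp5l, − strand), chr6:126849145-126849394 (Ndufa9, − strand), chr17:56717512-56717761 (Ndufa11, + strand) and chr4:116075071-116075320 (Uqcrh, − strand), and are written 5′ to 3′ in the gene's direction with matches in capitals.
Cox7b: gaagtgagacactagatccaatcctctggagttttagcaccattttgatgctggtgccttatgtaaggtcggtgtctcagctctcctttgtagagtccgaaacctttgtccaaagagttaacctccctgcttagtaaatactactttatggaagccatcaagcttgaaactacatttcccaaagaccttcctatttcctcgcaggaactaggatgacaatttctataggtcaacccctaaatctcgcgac
Atp5l: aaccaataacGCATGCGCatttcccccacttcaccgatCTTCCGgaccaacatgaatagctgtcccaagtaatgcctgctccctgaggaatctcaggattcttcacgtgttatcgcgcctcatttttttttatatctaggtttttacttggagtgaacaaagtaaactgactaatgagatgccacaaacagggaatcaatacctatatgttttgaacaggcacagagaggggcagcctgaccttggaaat
Ndufa9: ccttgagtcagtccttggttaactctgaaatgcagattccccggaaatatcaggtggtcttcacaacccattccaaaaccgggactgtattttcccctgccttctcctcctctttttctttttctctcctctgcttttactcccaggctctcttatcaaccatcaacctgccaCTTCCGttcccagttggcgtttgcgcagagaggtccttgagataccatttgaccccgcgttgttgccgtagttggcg
Ndufa11: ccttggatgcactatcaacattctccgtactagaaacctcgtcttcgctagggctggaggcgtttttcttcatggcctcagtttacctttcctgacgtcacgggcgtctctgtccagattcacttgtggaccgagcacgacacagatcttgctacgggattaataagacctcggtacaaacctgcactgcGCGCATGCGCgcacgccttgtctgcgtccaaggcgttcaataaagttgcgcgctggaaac
Uqcrh: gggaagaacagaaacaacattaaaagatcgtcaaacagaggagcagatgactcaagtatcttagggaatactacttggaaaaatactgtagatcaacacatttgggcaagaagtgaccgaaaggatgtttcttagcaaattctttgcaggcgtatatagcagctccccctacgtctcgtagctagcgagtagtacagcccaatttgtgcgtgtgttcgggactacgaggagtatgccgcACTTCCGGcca
The Cox7b window holds none of the 3 patterns. In Ndufa11 the capitals cover an NRF1 core on each strand, in overlapping letters of a palindrome.

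Per length, the subunits of a complex differed widely in level. Levels between genes are given as reads per kilobase of principal transcript per 1000000 assigned reads (RPKM), as mean ± SD over the 16 libraries. The highest of complex V was Atp5b, the catalytic β subunit of the synthase, at 2280 ± 314 RPKM, followed by the α subunit Atp5a1 at 1360 ± 237. In complex IV the muscle isoform Cox6a2 led at 1480 ± 258 RPKM, followed by Cox4i1 at 1290 ± 302 and Ndufa4 at 1110 ± 350. In complex I the accessory subunit Ndufb9 was highest at 1220 ± 282 RPKM. In complex III the core protein Uqcrc1 led at 1060 ± 160 RPKM. The median over tested members was 260 RPKM in complex I, 592 in complex III, 471 in complex IV and 705 in complex V.

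The lowest tested members were Ndufb2 (5.98 RPKM) in complex I, Uqcrc2 (223) in complex III, Cox6a1 (19.3) in complex IV and Atp5l (14.3) in complex V. The principal transcript of Ndufb2 is annotated at 4371 bases for a coding sequence of 315, which lowers its level per length. For Atp5l, 84.8% of the 50-base windows of the transcript also occur in 14 other annotated genes, among them a pseudogene by symbol, and for Atp5g2 87.4% occur in other genes. More than 30% of windows were shared in 12 members, whose reads the authors' counting could split with these other genes. Not all of the other genes are copies: Smim27, which shares 34.1% of the windows of Ndufb6, overlaps it on the chromosome. Cox4i2, Cox6b2, Cox7b2, Cox8c and Ndufa4l2 stayed under the filter on low values in every comparison.

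**Figure D1:**
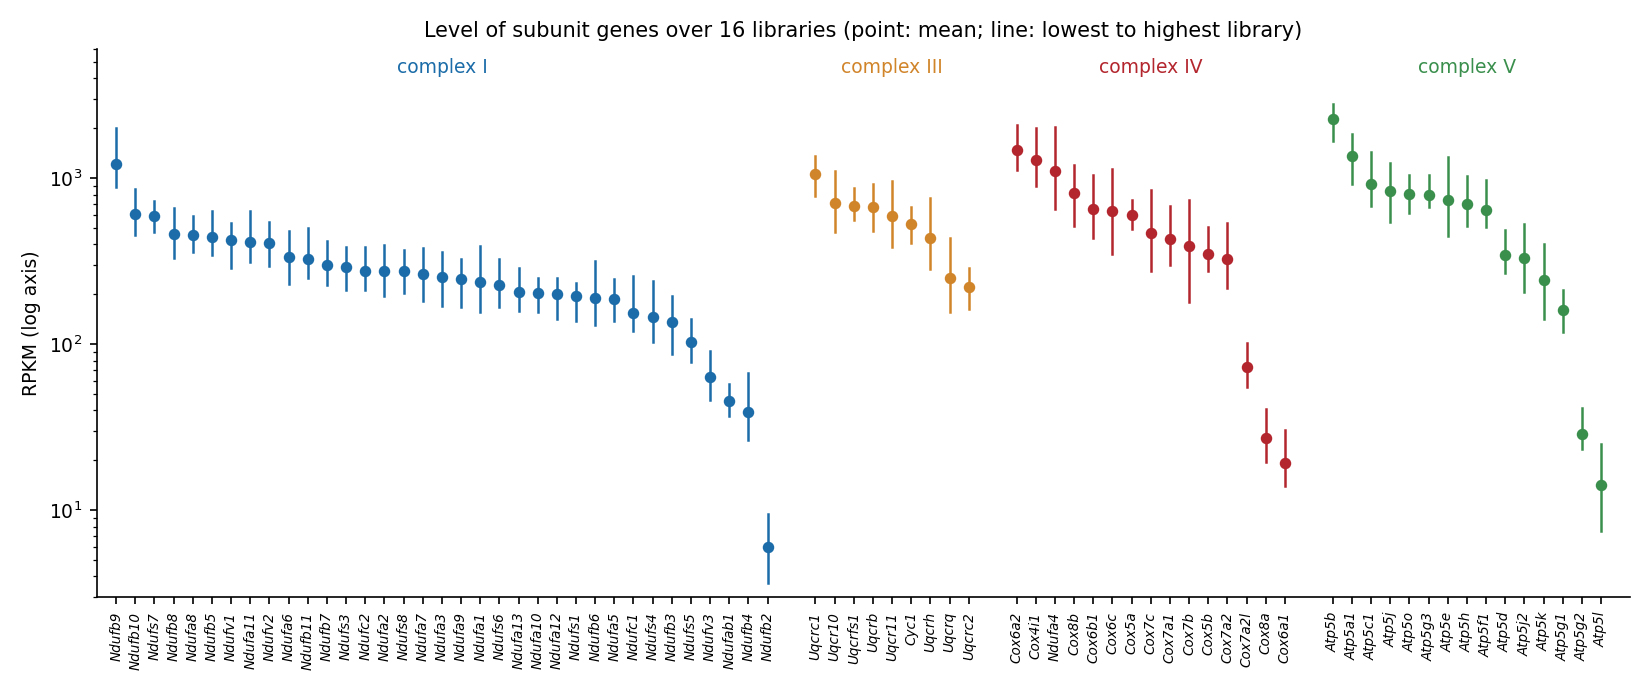
Level of subunit genes in RPKM on a log axis, ordered within complexes I, III, IV and V. Points are means over 16 libraries and lines run from the lowest to the highest library. Atp5b stands highest at 2280 and Ndufb2 lowest at 5.98, and members under the filter on low values are not drawn.

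The libraries of a group differed together across all 4 complexes, by more than the groups differed. For each library the log2 normalised reads of the tested subunits were averaged within a complex. In complex I this mean was 13.59, 12.98, 13.06 and 13.63 in young controls Yc4, Yc5, Yc7 and Yc8, and 13.41, 13.05, 13.65 and 13.04 in young runners Y1ex to Y4ex. It was 13.33, 13.61, 13.31 and 13.09 in old controls Oc1 to Oc4, and 13.58, 13.16, 13.05 and 13.30 in old runners O1ex to O4ex. Yc5 was the lowest young control, Y3ex the highest young runner, Oc2 the highest and Oc4 the lowest old control, and O1ex the highest and O3ex the lowest old runner in each of the 4 complexes. The group means of complex I lay between 13.27 ± 0.23 (SD, n = 4, old runners) and 13.34 ± 0.21 (old controls), those of complex III between 14.34 ± 0.21 and 14.48 ± 0.22, those of complex V between 14.06 ± 0.23 and 14.19 ± 0.27. In each of these complexes the group means differed by less than the SD between libraries.

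In complex IV the mean was 13.21 ± 0.37 in young runners against 13.40 ± 0.34 in young controls, and 13.18 ± 0.18 in old runners against 13.36 ± 0.17 in old controls. On this scale the libraries of runners and controls overlapped at both ages. Its genes took 0.50% ± 0.11 of assigned reads in young runners against 0.65% ± 0.18 in young controls, and 0.50% ± 0.03 in old runners against 0.60% ± 0.07 in old controls. The shares overlapped in young mice, and in old mice the highest runner had 0.55% and the lowest control 0.56%. Since libraries shifted as a whole, the difference between 2 complexes within a library varied less. Complex I minus complex IV was 0.08 ± 0.09 log2 in young runners against −0.09 ± 0.07 in young controls, with ranges of 0.00 to 0.21 and −0.16 to 0.00. In old mice it was 0.09 ± 0.06 (0.02 to 0.15) in runners against −0.03 ± 0.07 (−0.11 to 0.05) in controls. The ranges met in young mice and overlapped in old mice. Among all pairs of complexes this pair differed most between runners and controls at both ages. Complex III minus complex IV was 1.16 ± 0.13 in young runners against 1.02 ± 0.09 in young controls. In old mice it was 1.15 ± 0.04 against 1.12 ± 0.05. For complex IV minus complex V these were −0.87 ± 0.11 and −0.78 ± 0.11, and −0.88 ± 0.05 and −0.81 ± 0.04. Ranges of runners and controls overlapped in these other pairs. All members together took 3.51% ± 0.36 to 3.84% ± 0.43 of assigned reads per group.

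**Figure D2:**
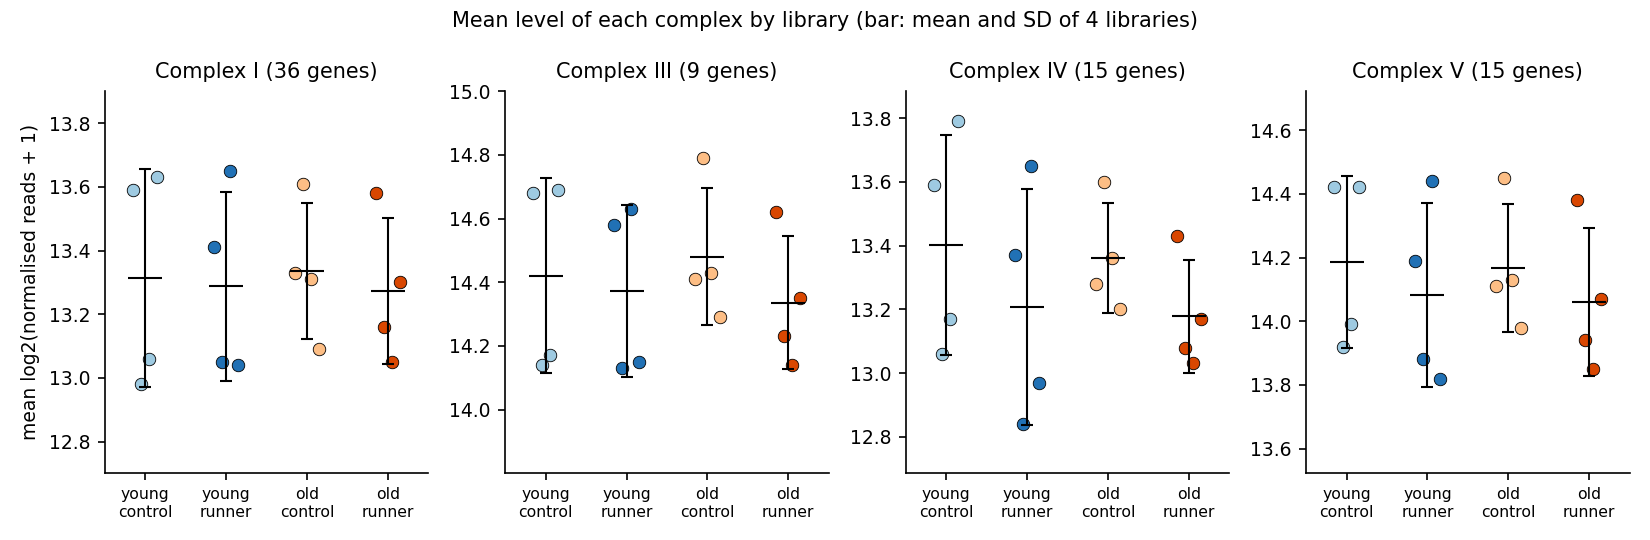
Mean log2(normalised reads + 1) of the tested subunits of each complex in each of 16 libraries, by group, with bars for the mean and SD of 4 libraries. Each panel spans 1.2 log2 units. The libraries of a group spread more than the group means differ, for example 12.98 to 13.63 in complex I of young controls.

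In young mice, Atp5a1, Ndufv1, Uqcrc1, Ndufa9 and Atp5b had the highest differences between runners and controls and Cox7b and Atp5l the lowest, and none of these passed the test. Ndufv1, the subunit of complex I that binds NADH, had 29459, 27026, 20478 and 25938 normalised reads in young controls and 36227, 33953, 40284 and 32166 in young runners. Every runner lay above every control, with a difference of 0.47 log2 (SE 0.16, 95% interval 0.13 to 0.81, adjusted p = 0.172, limma). Uqcrc1 had 70597, 66626, 55638 and 67313 reads in controls and 93936, 89076, 100659 and 75012 in runners, again without overlap (0.46, SE 0.16, adjusted p = 0.184).

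Both large subunits of the catalytic head of the synthase gave the same picture. Atp5a1 had 131247, 126763, 98785 and 111233 reads in young controls and 164960, 178877, 179791 and 146980 in young runners (0.52, SE 0.16, adjusted p = 0.147). Atp5b had 170482, 165513, 137066 and 159787 in controls and 211175, 219443, 244636 and 187491 in runners (0.44, SE 0.16, adjusted p = 0.204). For both genes the groups did not overlap. In the same direction, with overlapping groups, were the accessory subunit Ndufa9 (0.46, SE 0.17), Cyc1, the cytochrome of complex III that reduces cytochrome c (0.34, SE 0.16), and Ndufs1, the largest iron-sulphur subunit of complex I (0.32, SE 0.16).

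Cox7b, a small accessory subunit of complex IV encoded on the X chromosome, had the lowest difference of all members. It had 33974, 18416, 23098 and 30824 reads in young controls and 15432, 8563, 13215 and 10907 in young runners. Every runner lay below every control, and the group means were 26578 ± 7105 and 12029 ± 2959 (SD, n = 4). The difference was −1.13 log2 (SE 0.24, 95% interval −1.65 to −0.60) with an adjusted p of 0.0610. After quantile normalisation the adjusted p was 0.0212, and with the trend in exon length removed it was 0.0286 (limma). Cox7b thus passed the threshold under these 2 alternatives. Atp5l, the g subunit of the membrane part of the synthase, was also lower in every runner, with 331, 222, 286 and 276 reads against 456, 555, 591 and 573 in controls (−0.68, SE 0.18, adjusted p = 0.0991), under the limit on shared sequence given above.

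The other members with negative differences overlapped between the groups. Ndufa4, with 46029, 24048, 30858 and 52585 reads in young controls and 30744, 18734, 28635 and 22963 in young runners, differed by −0.56 (SE 0.26, adjusted p = 0.30). The values of Yc5 and Yc7, the libraries low in every complex, lay within the range of the runners or next to it. Uqcrq, a small subunit of complex III, differed by −0.45 (SE 0.27), Cox6c of complex IV by −0.40 (SE 0.27), and the accessory subunit Ndufs4 of complex I by −0.38 (SE 0.23). Across the complex IV members, 5 of 15 had positive differences, the highest of them Cox6a1 at 0.14.

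Of 77 members tested in young mice, 0 passed an adjusted p of 0.05 in either direction, where 81 of all 10624 genes (0.762%) passed. At an unadjusted p under 0.05 stood 7 members and 1844 of all genes, and voom on the recovered reads called 0 members. On the deposited log2 values, by which overlap was counted in each comparison, groups did not overlap in 4 members that were higher in runners (Ndufv1, Uqcrc1, Atp5a1 and Atp5b), where 5.71% of all genes were higher in this way, and in 2 that were lower (Cox7b and Atp5l), where 5.77% of all genes were. The median difference was −0.01 log2 in complex I, −0.13 in complex III, −0.08 in complex IV and −0.21 in complex V, against 0.01 over all genes tested. The 95% interval of a member had a median half-width of 0.51. In the same libraries the summed reads of 8 markers of fibro-adipogenic progenitors, connective tissue cells of muscle, were 14.4 to 616 in young controls and 3978 to 12141 in young runners. The part of other cells in the differences of the members was not tested.

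**Figure D3:**
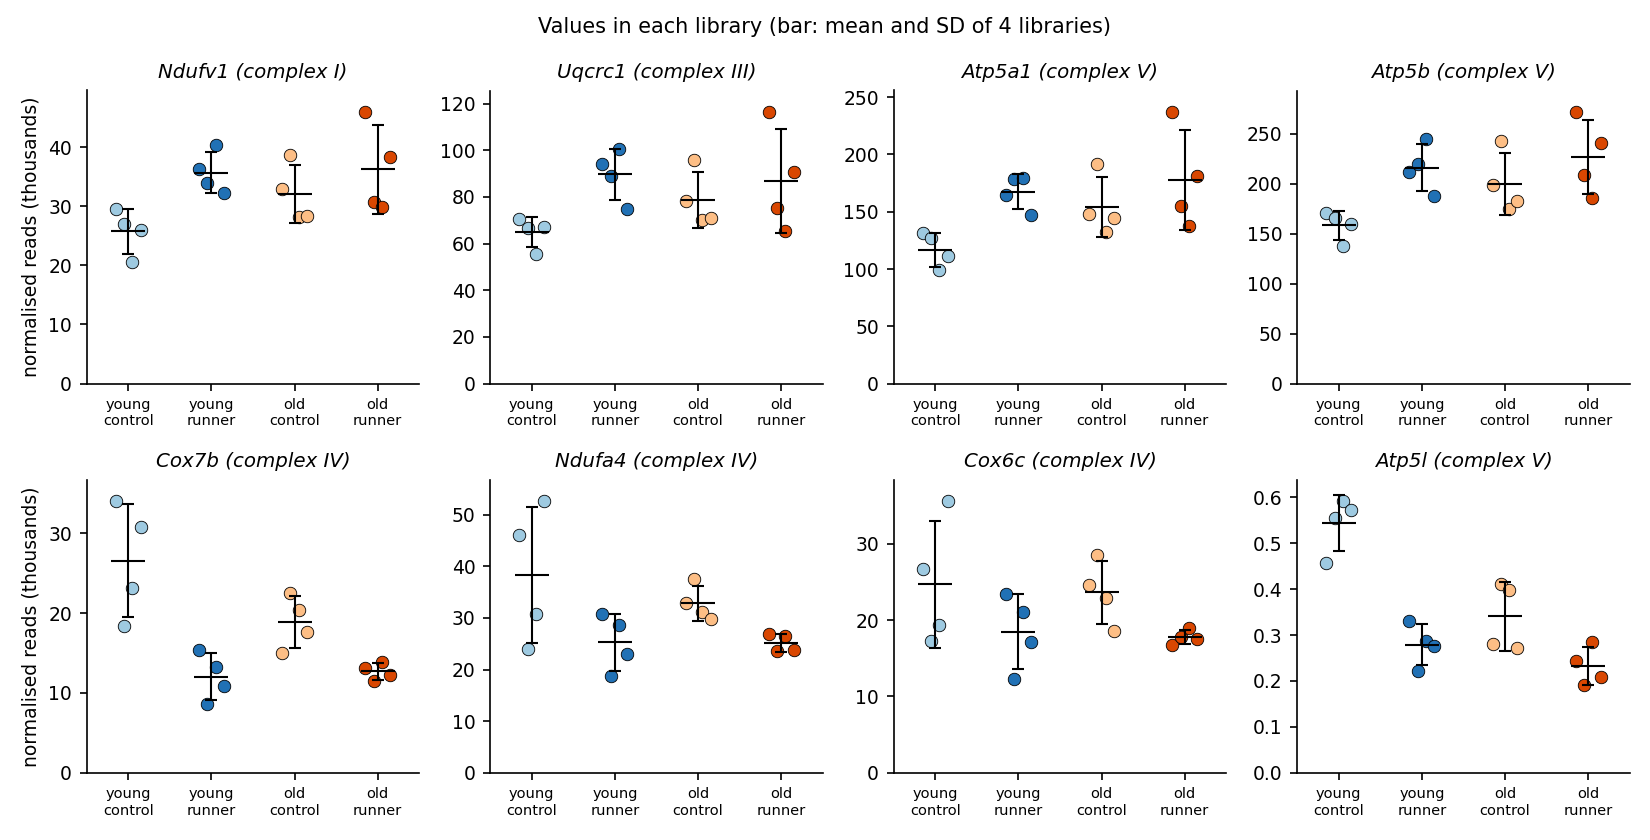
Normalised reads (in kilo-reads, on linear axes from 0) of 8 members in the 4 libraries of each group, with bars for the mean and SD. The upper row holds members with higher values in young runners than in young controls and the lower row members with lower values. Cox7b lies at 18416 to 33974 reads in young controls and at 8563 to 15432 in young runners.

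In old mice the 3 lowest differences with running were those of Cox7b, Cox6c and Ndufa4 of complex IV, and no member passed the test. Cox7b had 15034, 22540, 20340 and 17682 reads in old controls and 13155, 11501, 13851 and 12227 in old runners, again with every runner below every control (−0.54, SE 0.14, 95% interval −0.86 to −0.22, adjusted p = 0.131, limma). Without old control Oc1 its adjusted p was 0.0384. Ndufa4 had 32860, 37499, 31162 and 29864 reads in old controls and 26834, 23637, 26568 and 23747 in old runners, without overlap (−0.37, SE 0.12, adjusted p = 0.178). Cox7a2l, known as a factor that joins complexes III and IV, of which C57BL/6 mice are known to carry a short form impaired in that role, had 3453, 3667, 3817 and 3575 reads in controls and 3357, 2872, 2765 and 2845 in runners, also without overlap (−0.26, SE 0.11, adjusted p = 0.272). Cox6c had 24580, 28579, 22844 and 18568 reads in controls and 16747, 17847, 18983 and 17562 in runners, where Oc4 lay within the range of the runners (−0.38, SE 0.14, adjusted p = 0.213).

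In the other complexes the lowest differences in old mice were −0.36 for Atp5e (SE 0.18), the ε subunit of the synthase, −0.33 for Uqcrh (SE 0.15), the hinge protein of complex III, and −0.24 for Ndufa11, an accessory subunit of the membrane arm of complex I. The highest were 0.20 for Atp5a1 (SE 0.20), 0.20 for Ndufa9 (SE 0.18) and 0.19 for Atp5b (SE 0.18). In these 3 genes old runner O1ex held the highest reads of all 16 libraries, at 236927 in Atp5a1, 24447 in Ndufa9 and 271345 in Atp5b. The groups overlapped in all 6 of these genes and in Uqcrc1 (0.13, SE 0.19).

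Of 77 members tested in old mice, 0 passed the adjusted test, where 12 of all 9379 genes (0.128%) passed. At an unadjusted p under 0.05 stood 5 members and 1628 of all genes, and voom called 0 members. Groups did not overlap in 0 members that were higher in runners, where 4.86% of all genes were, and in 3 that were lower (Cox7b, Ndufa4 and Cox7a2l), where 5.29% of all genes were. The median difference was −0.04 in complex I, −0.16 in complex III, −0.18 in complex IV and −0.12 in complex V, against 0.03 over all genes. The median half-width of the 95% interval was 0.35. Positive differences were found in 26 of 77 members with the deposited scaling, in 14 after quantile normalisation and in 17 with voom. With the trend in exon length removed they were found in 39 of 76.

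The differences of single members with running resembled each other at the 2 ages, in comparisons that share no library. Across the 77 members the Pearson correlation of the difference in old mice with that in young mice was 0.85 and the Spearman correlation 0.84, against 0.54 and 0.52 across all 9356 genes tested at both ages. Genes are not independent replicates, and the libraries of both ages share the kit and the transformation, so these values describe the pattern. The 2 sets of genes also differ in spread. The median SD within groups was 0.308 log2 in members, 0.399 over all genes and 0.264 in genes of a level like that of the members. The correlation over genes of like level was not computed. Negative at both ages were 42 of 77 members and positive at both ages 20, where 2847 and 3600 of the 9356 genes were. No member had a difference with running that changed with age by the test of that change: 0 of 77 passed, where 0.0% of 9356 genes passed, 0 members and 585 of all genes stood at an unadjusted p under 0.05, and voom called 0. The highest was 0.59 for Cox7b (SE 0.29, 95% interval −0.02 to 1.19, adjusted p = 0.788), followed by 0.41 for Atp5l (adjusted p = 0.81), and the lowest was −0.35 for Cyc1 (SE 0.23, adjusted p = 0.868). In these 3 genes the difference with running was nearer to 0 in old mice.

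**Figure D4:**
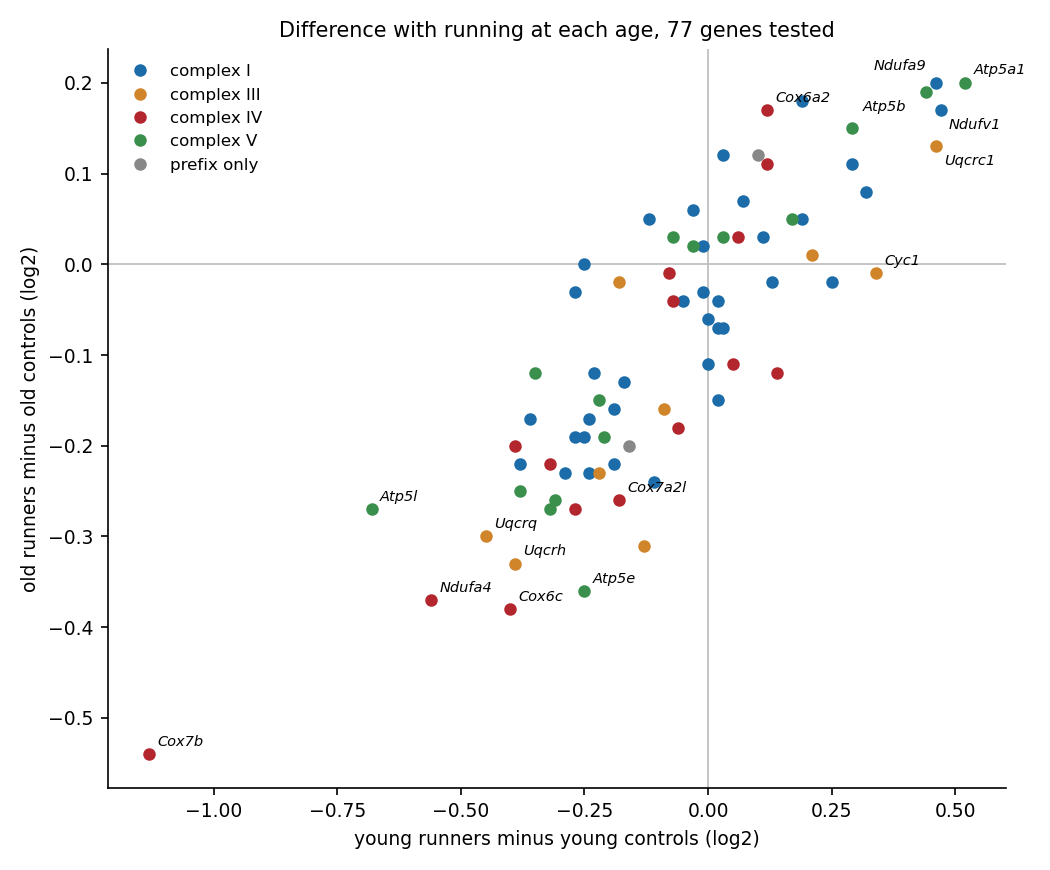
Difference with running of each of 77 tested members in young mice (horizontal axis, log2) and in old mice (vertical axis, log2), coloured by complex. The points lie along a rising line (Pearson correlation 0.85), with Cox7b lowest at −1.13 and −0.54 and Atp5a1 at the upper right at 0.52 and 0.20.

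Between controls of the 2 ages, 0 of 77 members passed the adjusted test, where 11 of 9831 genes (0.112%) passed. At an unadjusted p under 0.05 stood 3 members and 1099 of all genes, and voom called 0 members. Groups did not overlap in 4 members that were higher in old controls, where 4.16% of all genes were, and in 1 that was lower, where 2.84% of all genes were. The 4 were Atp5a1 (0.42, SE 0.17, adjusted p = 0.401), Ndufs1 (0.37, SE 0.14, adjusted p = 0.341), Atp5b (0.35, SE 0.16) and Uqcrc1 (0.29, SE 0.16, without overlap on the deposited log2 values only, since in normalised reads Oc3 with 69972 lay below Yc4 with 70597), and the lower one was Atp5l (−0.41, SE 0.17, adjusted p = 0.401). Ndufs1 had 19685, 20761, 17397 and 20016 reads in young controls and 24693, 28182, 24808 and 21658 in old controls. The medians of the complexes were 0.06, 0.11, 0.00 and −0.02 for complexes I, III, IV and V, against −0.01 over all genes.

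The young controls enter this comparison and that of running in young mice, so both carry the same 4 values. In Atp5a1 and Atp5b every young control lay below each of the other 12 libraries, and in Atp5l above each of them. These 2 and 1 of 77 members, picked after their values were seen, stand beside 0.977% and 0.966% of 9106 genes for which the young controls lay below or above all the others.

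Between runners of the 2 ages, differences ran from −0.21 (Cox7a2l, SE 0.16) to 0.16 (Cox6a2, SE 0.24), and the medians of complexes I, III, IV and V were −0.01, −0.06, −0.01 and 0.01, against 0.00 over all genes. Of 77 members 0 passed the adjusted test, where 2 of 9387 genes (0.0213%) passed. At an unadjusted p under 0.05 stood 0 members and 461 of all genes, and voom called 0 members. Groups overlapped in each of the 77, where 1.83% of all genes were higher and 1.54% lower in old runners without overlap. The median half-width of the 95% interval was 0.40.

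The muscle isoforms Cox6a2 and Cox8b made up nearly all of their pairs in each of the 4 groups. Cox6a2 made up 98.6% ± 0.26 of the reads per length of the Cox6a pair in young controls, 98.6% ± 0.139 in young runners, 98.6% ± 0.372 in old controls and 98.9% ± 0.133 in old runners (SD, n = 4). Cox8b made up 96.7% ± 0.763, 96.4% ± 0.228, 96.6% ± 0.933 and 97.0% ± 0.591 of the Cox8 pair in the same order. The pair Cox7a1 and Cox7a2 was mixed: Cox7a1, the muscle form, had 56.8% ± 2.36 in young controls, 58.9% ± 2.14 in young runners, 53.7% ± 2.50 in old controls and 57.6% ± 1.97 in old runners. Its shares overlapped between runners and controls at both ages. In old mice the highest control had 55.7% and the lowest runner 55.2%. The shares of this pair depend on annotated transcripts of 393 bases for Cox7a1 and 659 for Cox7a2. The deposited log2 values are not divided by length. On them Cox7a2 had the higher mean in each group, for example 13.31 against 12.97 in young controls. Of the 3 genes for the identical c subunit of the synthase rotor, Atp5g3 held 80.1% ± 2.77 to 81.6% ± 1.05 of reads per length across the groups. Atp5g1 held 15.5% ± 0.966 to 16.7% ± 2.63 and Atp5g2, under the limit on shared sequence given above, 2.60% ± 0.23 to 3.11% ± 0.222. These shares depend on the annotated transcripts, of 4715 bases for Atp5g1 (coding 408) and 723 for Atp5g3 (coding 423). In normalised reads Atp5g1 had the higher mean in each group, for example 35617 ± 5650 against 26792 ± 3823 in young controls.

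The isoforms known from low oxygen were near 0. Cox4i2, an alternative to Cox4i1, had 0 to 14.3 normalised reads, where Cox4i1 had 32316 to 64798. Ndufa4l2, a relative of Ndufa4, had 0, 0, 2.80 and 12.8 reads in young controls, 19.0, 12.5, 0 and 21 in young runners, 50.4, 0, 65.9 and 20.8 in old controls and 58.7, 29.2, 73.3 and 48.0 in old runners. Every old runner lay above every young runner, at a level too low for the test, and this was picked out after the values were seen. Of genes that were tested, 1.83% were higher in old runners without overlap on the deposited log2 values. The share among genes under the filter was not counted. Cox6b2, Cox7b2 and Cox8c, which are known mainly from testis, reached at most 1.61, 3.22 and 14.2 reads, each in 1 library. These 5 members were under the filter on low values.

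Members with a long coding sequence and members with a short one differed in direction with running. This split, like the group of core subunits below, was made after the values were seen and is a description. In young mice 14 of 57 members with up to 600 coding bases had a positive difference (median −0.18) and 14 of 19 longer ones did (median 0.21). In old mice the counts were 13 of 57 (median −0.13) and 12 of 19 (median 0.03). The Spearman correlation of the difference with coding length was 0.55 across 76 members in young mice and 0.47 in old mice, against 0.21 across 9803 genes and 0.38 across 8893 genes. Over all genes, too, the median was −0.13 at both ages up to 600 bases and 0.07 above. Among controls of the 2 ages the correlation was 0.46 across members and −0.16 across all genes, and among runners of the 2 ages 0.09 and −0.03. The 81 members with an annotation have a median coding length of 393 bases, and all genes tested in old mice 1344.

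Core subunits are longer, with a median of 789 coding bases in 17 subunits of complexes I, III and V that carry the redox centres or form the catalytic head and rotor of the synthase, against 336 in the others. In young mice 13 of the 17 had a positive difference and 15 of the 58 other subunits. In old mice the counts were 10 of 17 and 15 of 58. Role and length go together in this list, though not in every gene. The core subunits Atp5d, Atp5e, Atp5g1, Atp5g2 and Atp5g3 have 156 to 504 coding bases, and Uqcrc1, among the others, has 1440. The parts of role and length in these counts were not tested.

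Short genes outside the members were also compared library by library. The mean log2 reads of 56 short subunits was lowest in young runner Y2ex at 12.75 and highest in young control Yc8 at 13.62. In 1161 other genes with up to 600 coding bases it was 10.34 in Y2ex, the lowest of all libraries, and 10.73 in Yc8, below 10.81 in Yc4 and 10.74 in Oc3. The mean of these other short genes less that of 7435 long ones was 0.28 to 0.47 in old runners and 0.49 to 0.87 in old controls, and 0.11 to 0.73 in young runners and 0.23 to 1.13 in young controls. With the trend in exon length over all genes removed, the median differences with running in young mice became 0.05, 0.02, 0.01 and −0.13 for complexes I, III, IV and V. In old mice they became 0.03, −0.04, −0.04 and −0.03. Under that setting the medians of complexes I, III and IV in young mice and of complex I in old mice are above 0.

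**Figure D5:**
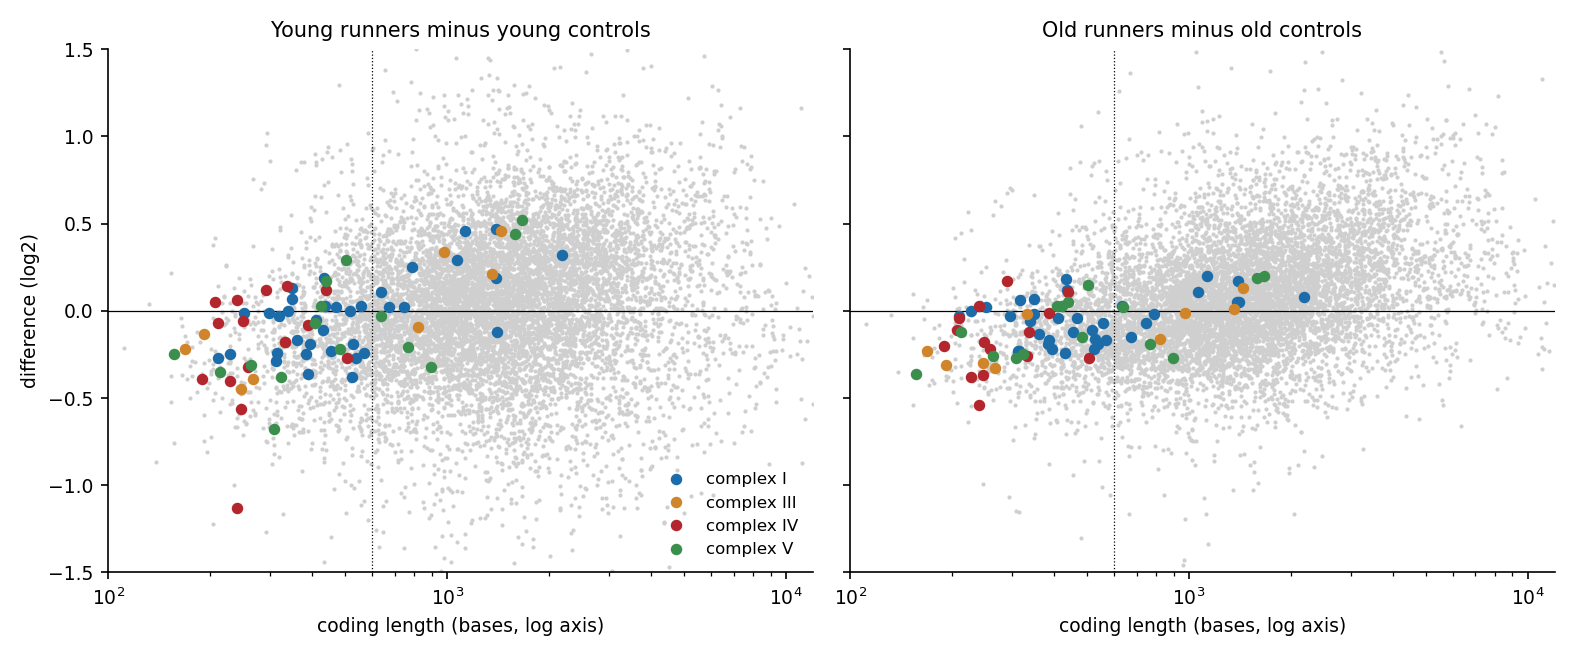
Difference with running (log2) against coding length in bases (log axis) for young mice (left) and old mice (right). Coloured points are tested members by complex, grey points all other genes tested, and the dotted line marks 600 bases. Members are mostly negative on the left of the line and mixed or positive on the right, and 96 of 9803 genes (left) and 32 of 8893 (right) lie outside the axes.

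The other genes of the pathway were taken from 9 lists, and 0 genes of these lists passed the adjusted test in any of the 4 comparisons. All 4 genes of succinate dehydrogenase had positive differences in young runners, with a median of 0.33. Sdha, its flavoprotein, differed by 0.70 (SE 0.16, adjusted p = 0.0711, limma) in young mice and by 0.20 (SE 0.19) in old mice. Electron carriers and genes of coenzyme Q synthesis had medians of 0.09 (16 tested) in young and −0.07 in old mice, with Cycs, the electron carrier cytochrome c, at −0.47 (SE 0.22) and −0.22 (SE 0.16). Assembly factors had medians of 0.01 and −0.01 for complex I (14 tested), 0.03 and −0.01 for complex III (6), −0.26 and −0.14 for complex IV (15 and 14 tested) and −0.07 and −0.11 for complex V (4). The carriers that exchange ADP, ATP and phosphate had medians of 0.04 and −0.08 (3 tested).

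Regulators of mitochondrial genes had medians of 0.03 in young and 0.11 in old mice (14 tested). Ppargc1a, the coactivator PGC-1α, differed by −0.60 (SE 0.22, adjusted p = 0.207) in young runners and −0.20 (SE 0.19) in old runners. Perm1, a muscle regulator that acts with it, had positive differences at both ages (0.32, SE 0.24, and 0.51, SE 0.19), as did the nuclear receptor Esrrg, at 1.01 (SE 0.37) in old mice. The subunits encoded in the mitochondrial DNA had medians of −0.13 in young mice (11 tested) and 0.04 in old mice (10 tested). Their summed reads ran from 296542 to 805119 in young controls and from 260967 to 807726 in young runners.

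The markers of fibro-adipogenic progenitors were higher in young runners, where 3 of 6 tested passed the test (smallest adjusted p = 0.0038, Col1a2, limma). The label of the cells was checked on 8 myofibre markers, whose summed normalised reads were 4970752 to 9888795 over the 16 libraries. In old mice the sums of the fibro-adipogenic markers were 210 to 1879 in controls and 1901 to 4017 in runners, where 0 of 3 tested passed, and Pdgfra was at 0 in every old library. Markers of endothelium (289 to 1054 against 1233 to 5530 in young controls and runners), of pericytes and smooth muscle (2527 to 8400 against 7217 to 13577) and of satellite cells (4066 to 5904 against 6104 to 7351) had 0 genes past the test with running. In young and old mice 7 and 6 of the endothelial, 2 and 2 of the pericyte and 3 and 1 of the satellite cell markers were tested. Markers of slow and oxidative fibres (4 and 3 tested), macrophages (2 and 1), red blood cells (2 and 2) and the myofibre itself (8 and 8) also had 0 past it. Of nerve markers 1 was tested in young and 0 in old mice, and of adipocyte markers 0 at both ages, so the test is silent on these. Between controls of the 2 ages 1 macrophage marker, Mrc1, was lower in old mice (adjusted p = 0.0448). In such bulk RNA fewer cells of a type and less RNA per cell cannot be told apart.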

How the data were processed

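RNA of 16 myofibre libraries (10 ng each, amplified with SMART-Seq v4) was analysed in 4 groups of 4. The authors deposited 4 tables, each for 1 pair of groups, of log2 values from the variance-stabilising transformation of DESeq2. Per the submitters' processing notes, Trim Galore, STAR, featureCounts and DESeq2 were used with build mm10; their versions are not given in the sources used here. Differences of low genes are compressed on this scale. Inverting it gave whole reads (within 0.02 for 100.0% of values), the same in both tables of a library.

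Each pair was tested within its table with limma 3.58.1 (R 4.3.3; lmFit, eBayes with trend, 2-sided) on genes at least 1 above the table's floor in at least 4 libraries, with Benjamini-Hochberg adjustment over all of them and a threshold of 0.05. The difference of the running effects was tested over both running tables. Normalised reads are recovered reads over median-of-ratios size factors of 10171 genes. RPKM used the length of the principal transcript of GENCODE M21. The length correction used the summed length of all annotated exons of a gene, without repeating overlapping bases. In this annotation 22254 of 23220 symbols matched. Promoter sequences are from RefSeq. The fits were tested on simulated data.

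Alternatives were the filter, the scaling, voom on recovered reads with TMM scaling, removal of an exon length trend, a replicate block, the complex of Ndufa4, and leaving out each library. Members, gene lists and markers were chosen with earlier results of these data known. Named members were the 3 of each complex with the smallest p in each comparison, fixed isoform families and core subunits, and the highest and lowest by level. Members outside this rule that are named were chosen after their values were seen. Depth was 30.7 to 67.4 M (M, 1000000) assigned reads. The level of 1 member is not reported here.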

Additional observations from a re-analysis of the deposited data

Results flagged for a closer look

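Of 168 sets of 4 libraries examined for the named members, 5 held a library far from the other 3 (Dixon's test of the gap against the range). Chance alone flags about 1 in 20 such sets. In young runners Y3ex had 71582 normalised reads of Cox6a2, the muscle isoform of complex IV, where the others had 36263 to 41025. In the same library Atp5g2, a gene of the c subunit of the synthase, had 1511 against 840 to 887. In old controls Oc2 had 45881 reads of Cyc1 against 34162 to 35300. In old runners O1ex had 4692 reads of Ndufb3 against 4003 to 4069, and 11624 of Ndufs4 against 9194 to 9353. Y3ex, Oc2 and O1ex are also the libraries of their groups with the highest mean in each complex.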

How the results depend on the processing

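Of the counts of members past the threshold and the medians of the complexes, 3 moved and 315 did not under an alternative, where a median counts as moved only past the SD of the complex mean between libraries and may change sign within it. Of the values of single named members 1651 stayed on their side of the threshold and 3 passed it. All 6 concern Cox7b. In old mice the number of members past the threshold was 0 to 1 when each library was left out in turn, with 1 without Oc1 (Cox7b, −0.64, adjusted p = 0.0384), where 295 of all genes passed in place of 12. Its adjusted p ranged from 0.0384 to 0.342 over libraries left out and from 0.0870 to 0.240 over the other alternatives. In young mice the number was 1 after quantile normalisation (Cox7b, −1.18, adjusted p = 0.0212) and 1 with the length trend removed (−1.0, adjusted p = 0.0286), and 0 with each library left out (adjusted p 0.0609 to 0.205). The cause was not tested. The numbers of all genes past the threshold ran from 0 to 295 in old running, 0 to 228 in young running, 3 to 52 between controls and 0 to 3 between runners. The median of complex I ran from −0.15 to 0.05 in old running and from −0.20 to 0.09 in young running with a library left out, that of complex IV from −0.26 to −0.11 and from −0.27 to 0.06, so the signs of complex I at both ages and of complex IV in young mice rest on single libraries. Positive differences in old running numbered 9 of 77 without O1ex and 40 without Oc2, and in young running 12 without Y3ex and 42 without Yc8. Between controls 43 of 77 were positive, 20 without Oc2 and 68 without Yc8. Between runners 32 of 77 were positive, 50 after median centring, 70 without Y3ex and 10 without Y2ex. With the replicate block 0 members passed in old running (smallest adjusted p = 0.240) and 0 between runners (1.0). Same-numbered libraries had correlations of deviations of −0.14, −0.13, 0.12 and −0.11, and of −0.24, 0.09, −0.40 and −0.04. The labels state no pairing by number, and so few correlations cannot decide whether there was one. No paired analysis was possible for the other 2 comparisons because their groups share fewer than 2 numbers.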
